A study of Mus musculus with 4 samples.

Results

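Ribosomal protein genes were examined in single LMPPs (lymphoid-primed multipotent progenitors), bone marrow cells at an early step of blood formation with both lymphoid and myeloid potential. Members were taken by name from the deposited gene table: symbols that read Rpl or Rps with a number and at most 1 further letter or an l1 ending, together with Rplp0, Rplp1, Rplp2 and Rpsa, and without entries named as pseudogenes (-ps) or retrotransposed copies (rt). This gave 83 of 27998 genes, 31 of the small and 52 of the large ribosomal subunit. LMPPs had been sorted from C57BL/6 mice and captured in 10x Genomics droplets, with 1 library for each of 4 groups. Control mice had RBPJ, the DNA-binding partner of activated Notch, throughout. Uninduced mice lacked RBPJ, and the 3-day and 6-day libraries came from mice of that kind in which doxycycline had switched RBPJ on for 3 or 6 days, first by an abdominal injection at 2 mg/ml and then at 1 mg/ml in drinking water. The labels give this treatment text for all 4 libraries, so whether control and uninduced mice also received doxycycline is not clear from them. They name neither the construct that carries inducible RBPJ nor what removed the gene, nor the number, age or sex of the mice.

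The libraries held 2693 control, 2769 uninduced, 1292 3-day and 2129 6-day cells, taken from the authors' own cell sets. UMIs, the unique molecular identifiers that mark each captured RNA molecule, came to 23504158, 20952799, 10647894 and 17455692. All 10 LMPP markers checked, among them Flt3, Kit, Cd34 and Satb1, stood at 2 CPM or more in every library, where CPM is a gene's UMI count scaled to a common library total. Pairs of libraries shared between 2 and 17 cell barcodes, against 3.73 to 10.1 for random draws from all barcodes. Uninduced and 6-day shared 17 against 7.996 for random draws, control and 6-day 12 against 7.78, and 3-day and 6-day 5 against 3.73. Control and uninduced shared 10 against 10.1, control and 3-day 3 against 4.72, and uninduced and 3-day 2 against 4.85. With 1 library per group no difference between groups has a replicate check, and library preparation and group cannot be told apart. Intervals in brackets are 95% intervals that cover counting error only. The number of cells with 5 or more genes of 1 other cell type's marker list was 19, 47, 31 and 62 in the same order.

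Each eukaryotic ribosome holds a single copy of nearly every ribosomal protein, and the transcripts of the family are made in large amounts. Most ribosomal protein messages begin with a run of pyrimidines, the terminal oligopyrimidine or TOP motif, through which growth signalling by mTOR and the RNA-binding protein LARP1 sets their translation. Inherited loss of 1 copy of any of several of these genes causes Diamond-Blackfan anaemia, a failure of red cell production, and free Rpl5 and Rpl11 bound to 5S RNA restrain Mdm2, the ligase that degrades p53. Blood progenitors are known to be sensitive to the rate of protein synthesis.

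The bases around the annotated transcript start are shown for 6 of the 8 members that differed most between libraries (Rpl15, Rps28, Rpl27, Rps27, Rpl35 and Rpl38). They are also shown for Rps6 and Rps9, and for Rpl7a and Rpsa, which differed least. Sequences are from RefSeq on GRCm38.p6, 5′ to 3′ on the gene's strand, with 15 bases before the annotated start and 15 from it on, and capitals mark the longest run of C and T.
Rpl15 (chr14:18270972-18271001, minus strand): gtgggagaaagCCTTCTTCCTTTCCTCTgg
Rps28 (chr17:33824548-33824577, minus strand): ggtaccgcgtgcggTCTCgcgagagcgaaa
Rpl27 (chr11:101442230-101442259, plus strand): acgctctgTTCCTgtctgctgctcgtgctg
Rps27 (chr3:90213634-90213663, minus strand): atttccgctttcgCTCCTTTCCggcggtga
Rpl35 (chr2:39005117-39005146, minus strand): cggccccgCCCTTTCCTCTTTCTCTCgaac
Rpl38 (chr11:114668565-114668594, plus strand): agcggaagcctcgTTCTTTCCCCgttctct
Rps6 (chr4:86857353-86857382, minus strand): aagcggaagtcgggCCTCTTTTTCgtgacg
Rps9 (chr7:3704026-3704055, plus strand): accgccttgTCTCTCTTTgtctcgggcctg
Rpl7a (chr2:26910792-26910821, plus strand): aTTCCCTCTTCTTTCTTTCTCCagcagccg
Rpsa (chr9:120127751-120127780, plus strand): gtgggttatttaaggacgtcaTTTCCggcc
Runs could begin before the annotated start, as in Rpl7a, so their lengths are not those of a TOP motif in the message. The pyrimidine run was 17 bases long in Rpl15, 18 in Rpl35 and 21 in Rpl7a, and only 4 in Rps28 and 5 in Rpl27 and Rpsa. Both members with large and members with small differences between libraries therefore had long and short runs in these windows. The RefSeq table held 62 of the 83 members, and a gene was counted if any of its listed starts matched. Of the 62, 35 (56.5%) had 8 or more C or T in a row on their own strand within 30 bases of the annotated start, against 25.7% of 26963 other genes. The letters CCGGAAG, searched on both strands over the 300 bases around the start, were present in 25 of the 62 (40.3%) and in 9.86% of other genes. AAGATGGC, which begins with the AAG that ends CCGGAAG so that matches can overlap, was present in 6 (9.68%) against 3.17%, and TATAAA in 7 (11.3%) against 15.7%.

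Ribosomal protein transcripts made up well over 30% of everything captured. Their summed share of UMIs was 38.31% (38.29 to 38.33) in control and 38.81% (38.79 to 38.84) in uninduced cells, 38.44% (38.41 to 38.47) after 3 days and 39.996% (39.97 to 40.02) after 6 days. The 6-day library was the highest, and the other 3 lay closer to each other than to it. The small subunit took 16.4%, 16.5%, 16.4% and 17.0% of UMIs in that order and the large subunit 22.0%, 22.3%, 22.0% and 23.0%, so both subunits had the same highest library. In single cells the median share was 39.0%, 39.7%, 39.6% and 41.1%, with SDs over cells of 4.22 points in control and 4.76 in uninduced. The distances between libraries were thus smaller than the spread between cells of 1 library, which is itself no measure of the error between mice. The median cell had UMIs of 79 members in each library and the poorest cell of any library had UMIs of 43, some of which can come from free RNA.

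**Figure D1:**
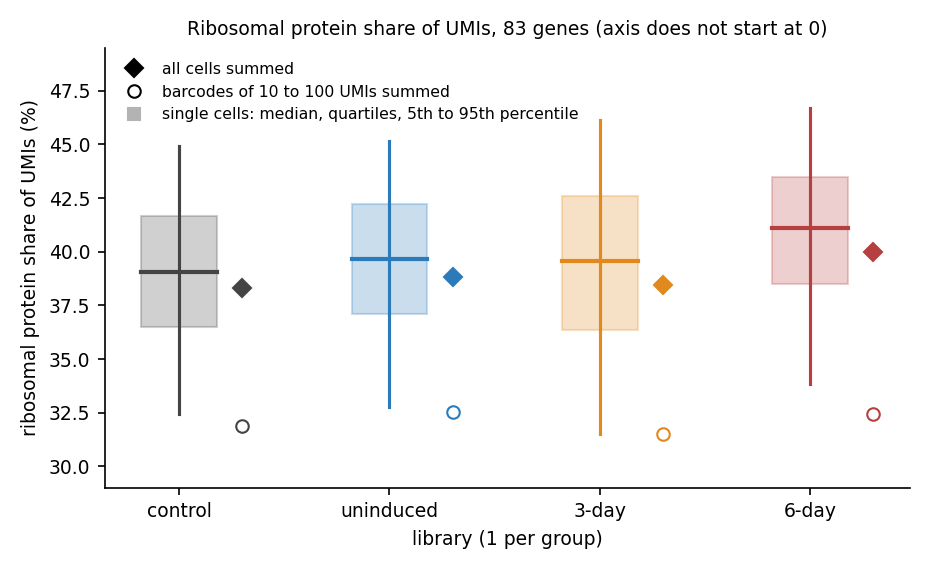
Share of UMIs from the 83 ribosomal protein genes in each library, in percent. Boxes and bars give single cells (median, quartiles, 5th to 95th percentile), diamonds all cells summed and open circles all barcodes of 10 to 100 UMIs summed. The 6-day diamond stands highest, at 39.996%, and the open circles lie between 31.5% and 32.5%.

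Barcodes with 10 to 100 UMIs, which mostly hold RNA from outside cells, had a lower share, with 31.9%, 32.5%, 31.5% and 32.4% in the order control, uninduced, 3-day and 6-day. There the intervals of uninduced (32.39 to 32.66) and 6-day (32.36 to 32.53) overlapped, whereas in cells 6-day was above uninduced. Share and UMIs per cell had Spearman correlations over cells between -0.35 and -0.26 in the 4 libraries, but the relation was not even: the shallowest 25% of cells had a lower share than the next 25% in each library (39.9% against 40.5% in control). Cells under 20% numbered 9, 24, 15 and 20 in that order. Cells with 5 or more neutrophil and monocyte genes, such as S100a8 and Ltf, had a median share of only 4.70% in control (8 cells), 8.46% in uninduced (28), 11.6% in 3-day (24) and 7.10% in 6-day (31). The neutrophil and monocyte list summed to 1312 CPM in control against 3798, 4457 and 3185 CPM in the other libraries, and 10 to 15 of its 16 genes stood at 2 CPM or more. Without all cells of other types the shares were 38.4%, 39.1%, 38.7% and 40.3%, in which 6-day remained the highest and control the lowest.

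Of the 83 members, 80 stood at 10 CPM or more in every library. The other 3 were Rpl10l, Rpl39l and Rpl3l, copies known mainly from testis and muscle, and all were under 2 CPM in every library. Rpl10l had 0.0425 CPM in control cells, Rpl39l 0.255 CPM and Rpl3l 0.808 CPM. A UMI counts a molecule and carries no term for transcript length, so levels are compared between genes as molecules captured. By that measure Rpl41, a peptide of the large subunit that is among the shortest proteins known, led the control library with 9974 CPM (9933 to 10014), followed by Rps29 with 9728 CPM (9688 to 9768) and Rpl39 with 9234 CPM (9195 to 9273). The lowest of the 80 was Rpl7l1 with 79.7 CPM (76.1 to 83.4), followed by Rpl6l with 596 CPM (586 to 606) and Rps27l with 632 CPM (622 to 642). Rpl6l meets the naming rule, but GENCODE lists it as a processed pseudogene, and 85.3% of the words in its end also occur in other genes. Such sharing is common in the family: the ends of 41 of the 83 members were at least 50% shared with other genes, which was true of 3.05% of 7253 other genes, so reads could have been divided between a member and its copies.

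Between uninduced and control cells the median member had a log2 ratio of 0.04, against -0.07 for all 7235 genes tested. No member was 1.2-fold higher (background 2.92% of genes), and 4 were 1.2-fold lower (background 10.1%). Between 3-day and control cells the medians were 0.05 for members and -0.08 for all genes, with no member 1.2-fold higher (background 3.56%) and 4 lower (background 18.4%). Between 6-day and control cells they were 0.07 and -0.10, and 69 of the 80 members were on the higher side, yet none passed 1.2-fold either way (background 1.91% higher and 10.4% lower). These 3 comparisons share the control library. Scaled by total UMIs, the median member was in all 3 slightly above control and the median gene slightly below it.

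After induction the median member was nearly level with uninduced cells. At 3 days the medians were -0.003 for members and -0.007 for all genes, and no member passed 1.2-fold (background 5.97% higher and 8.12% lower). At 6 days they were 0.02 and -0.03, with 4 members 1.2-fold higher (background 3.83%) and none lower (background 4.47%). From 3 to 6 days they were 0.01 and -0.02, with 7 members 1.2-fold higher (background 9.58%) and none lower (background 9.38%). The comparisons with uninduced cells share that library.

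Over all 4 libraries the family was even. The highest library exceeded the lowest by 1.2-fold or more in 8 of 80 members (10.0%), against 42.0% of 7340 genes, and by 1.5-fold in 2 members, against 4.25%. Among 51 other genes at 1000 CPM or more in all libraries, which are measured about as precisely, 14 passed 1.2-fold (27.5%). The median spread between highest and lowest library was 0.10 on the log2 scale for members and 0.18 for those 51 genes. Control was the lowest of the 4 libraries in 50 of 80 members (62.5%), against 9.95% of all genes. Scaled by TMM factors instead of total UMIs, control was lowest in 63 members against 23.3% of genes.

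The 8 members with the largest spread were chosen for it, and their values are a description. Rpl15, a core protein of the large subunit and a Diamond-Blackfan gene, had 2153 CPM in control and 1435 CPM in uninduced cells, then 1642 at 3 days and 2197 at 6 days. Control and 6-day were close and the other libraries lower, with an uninduced to control ratio of 0.666 (0.657 to 0.676) and a 6-day to 3-day ratio of 1.34 (1.31 to 1.36). Rps28, a small protein at the messenger RNA exit of the small subunit and also a Diamond-Blackfan gene, had 7590.2, 5381, 5034 and 7075 CPM, again with control and 6-day above the rest. Its uninduced to control ratio was 0.709 (0.704 to 0.714) and its 6-day to 3-day ratio 1.41 (1.39 to 1.42). Rpl6l had 596, 405, 433 and 575 CPM in the same order of libraries. Rpl27, another Diamond-Blackfan gene, had 2427, 1855, 2102 and 2503 CPM.

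The remaining 4 had smaller differences with the same high and low libraries, and in each 6-day was the highest and 3-day the lowest. Rps29, a zinc-binding protein of the small subunit head, had 9728, 8165, 7544 and 9769 CPM. Rps27, also zinc-binding, had 6575, 5979, 5515 and 6954 CPM. Rpl38, which is known for its role in the translation of Hox messages, had 4167, 3739, 3482 and 4363 CPM. Rpl35, at the exit tunnel of the large subunit, had 3483, 3293, 3072 and 3862 CPM. Just under the limit of 1.2-fold, Rps21 reached a highest to lowest ratio of 1.19.

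**Figure D2:**
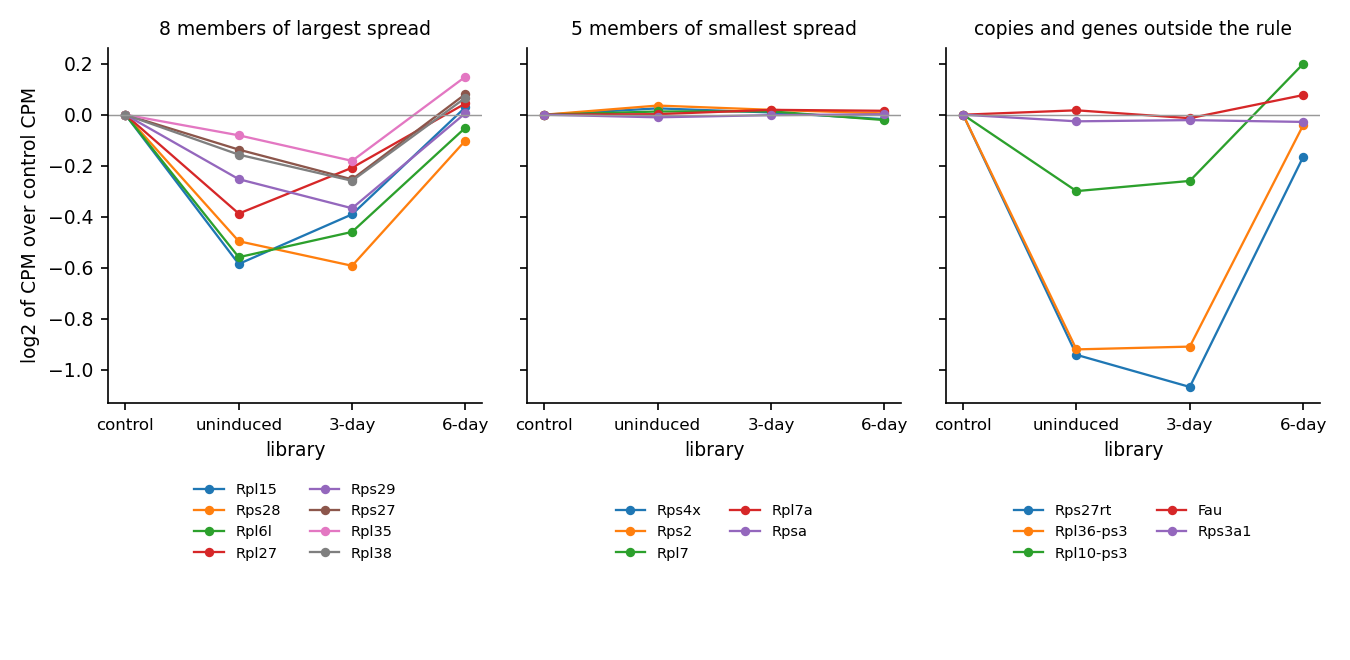
Level of single genes in each library as log2 of CPM over control CPM, for the 8 members of largest spread, the 5 of smallest spread and selected copies or ribosomal genes outside the naming rule. Lines join the 4 libraries of 1 gene. Genes of the first panel and the 3 copies dip in uninduced and 3-day cells, while the second panel is flat.

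In 18 of the 80 members (22.5%) both control and 6-day cells were above both uninduced and 3-day cells, and 22.1% of all genes had this order. By 1.2-fold or more the order held in 3 members, Rpl15, Rpl6l and Rps28 (3.75%), against 1.55% of all genes. The opposite order, with uninduced and 3-day above, was found in 18 members, against 13.9% of all genes, and in no member by 1.2-fold (0.531% of genes). TMM scaling left 10 members in the first order (19.2% of all genes), 16 in the second (22.0%) and 3 in the first by 1.2-fold (1.26%), so both orders were then less common among members than among all genes. Scaled by genes that are not members, the first order held in 17 members (26.7% of all genes) and the second in only 2 (13.0%). Entries named as copies, which the rule leaves out, followed the first order more fully: it held in all 12 of 17 that reached 10 CPM, and by 1.2-fold in 11. Rps27rt, a retrotransposed copy of Rps27, had 1019, 531, 486 and 908 CPM in the order control, uninduced, 3-day and 6-day.

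Other features moved with the same order of libraries. A list of early response and heat shock genes, such as Fos, Jun and Dusp1, summed to 5344, 8457, 8985 and 5428 CPM in that order, so it was high where these members were low. All 6 members with a shortest transcript of 400 bases or fewer (Rps28, Rpl38, Rps27, Rpl36, Rps29 and Rps21) were lower in uninduced than in control cells, with a median log2 ratio of -0.16, and all 6 were higher in 6-day than in 3-day cells, with a median of 0.33. The 25 members of over 400 to 600 bases had medians of 0.06 and 0.02. All 6 short members also had ends shared by 25% or more, so length and sharing cannot be told apart among them. Over all 80 members, log2 ratio and transcript length had Spearman correlations of 0.02 for uninduced over control and -0.36 for 6-day over 3-day. With shared ends the correlation was -0.01 in each. Outside the naming rule, genes of 400 bases or fewer whose ends are 25% or more shared had medians of -0.41 and 0.53 (14 genes). Those with less shared ends had -0.05 and 0.03 (46 genes). The 14 include Rpl36-ps3, a copy that the rule leaves out, so they are not a set separate from the family. Rpl15 and Rpl27 have longer transcripts, of 802 and 614 bases, and are not among the short members. The part of early response genes, transcript length and shared ends in the levels of these members was not tested.

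**Figure D3:**
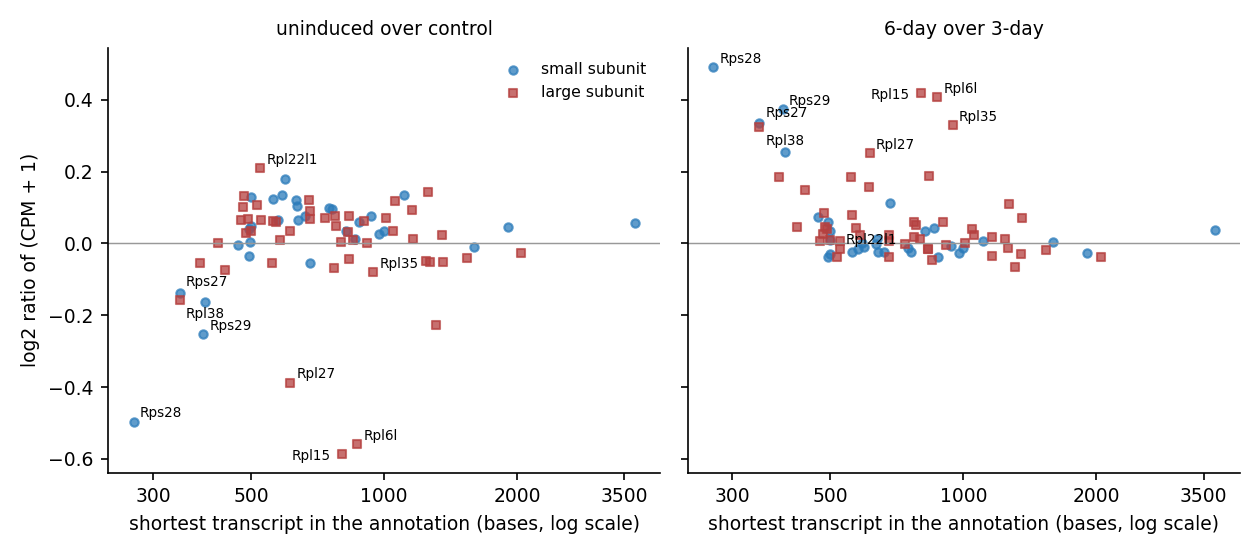
Log2 ratio of (CPM + 1) for each of 80 members against the length of its shortest annotated transcript in bases (log axis), for uninduced over control and for 6-day over 3-day cells. Circles are small and squares large subunit genes. The shortest members lie below 0 in the first panel and above 0 in the second, and Rpl15, Rpl6l and Rpl27 do so at greater length.

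The differences of Rpl15 and Rps28 were of like size in the cell cycle classes. Rpl15 had uninduced to control ratios of 0.653 (0.626 to 0.681) in G2/M-high, 0.646 (0.615 to 0.678) in S-high and 0.692 (0.665 to 0.720) in low-cycling cells, classes that are described further on. For Rps28 the ratios were 0.696 (0.680 to 0.712), 0.704 (0.686 to 0.722) and 0.710 (0.696 to 0.725). In cells with an Il7r but no Hlf transcript Rps28 had 0.760 (0.730 to 0.792), against 0.696 (0.687 to 0.705) in cells with neither. Rpl15 had 0.652 (0.603 to 0.705) and 0.659 (0.643 to 0.676) in those cells. In barcodes of 10 to 100 UMIs the ratio was 0.872 (0.793 to 0.957) for Rpl15, 0.782 (0.741 to 0.824) for Rps28, 0.970 (0.890 to 1.06) for Rpl27 and 1.04 (0.850 to 1.28) for Rpl6l. For these 4 members and for Rps29, at 0.911 (0.870 to 0.953), the ratio in cells lay below the interval. It lay inside the interval for Rps27, at 0.930 (0.885 to 0.977), and Rpl38, at 0.883 (0.826 to 0.942). Rpl35 was higher in uninduced than in control there, at 1.22 (1.12 to 1.33), and not in cells.

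The stalk genes, Rpl5, Rpl11 and Rpsa differed less between libraries than the 8 members of largest spread, which were chosen for it. Rpl11, at 0.098 on the log2 scale between highest and lowest library, lay near the median member at 0.10. The 3 stalk genes, whose products recruit elongation factors, together took 1.77%, 1.76%, 1.77% and 1.82% of UMIs in control, uninduced, 3-day and 6-day cells. Rplp0, the base of the stalk, had 6958, 6712, 6564 and 6892 CPM, so control and 6-day were slightly higher. Rplp1 had 5779, 5917, 5971 and 6014 CPM, and Rplp2 had 4962, 4964, 5149 and 5315 CPM, both with 6-day highest. Rpl5 had 1129, 1108, 1106 and 1077 CPM and Rpl11, its partner in the complex with 5S RNA, had 4357, 4592, 4663 and 4614 CPM. Per molecule captured, Rpl5 was thus present at a fraction of the level of Rpl11, although the ribosome holds both in equal number. Rpsa, the small subunit protein also known as the laminin receptor, was the most even of the 80, with 3562, 3537, 3558 and 3567 CPM and an uninduced to control ratio of 0.993 (0.983 to 1.00).

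The 22 members on the Diamond-Blackfan list took 10.2%, 9.88%, 9.83% and 10.7% of UMIs in that order. The list includes Rpl15, Rps28, Rpl27, Rps29, Rps27 and Rpl35, so 6 of the 8 members of largest spread are on it. Those 8 were chosen for their spread, and of all 80 members measured 22 are on the list. Its median log2 ratio in uninduced against control cells was 0.02, with 3 of 22 members 1.2-fold lower, near the 10.1% of all genes. Of all 80 members 4 were 1.2-fold lower, those 3 among them, and whether the list differs from the other members was not tested. Rps19, the gene most often mutated in that anaemia, had 8374, 9099, 8824 and 8822 CPM, and control was its lowest library.

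Paralogues that can replace a ribosomal protein differed from their parents in level and sometimes in pattern. Rpl22l1, the paralogue of Rpl22, a protein needed for early T cell development, had 2262, 2618, 2512 and 2487 CPM. Its uninduced to control ratio of 1.16 (1.14 to 1.17) was the highest of the 80, whereas Rpl22 had 1846, 1933, 1999 and 2009 CPM and a ratio of 1.05 (1.03 to 1.06). Rps27l, a p53 target and paralogue of Rps27, had 632, 691, 723 and 709 CPM, with control lowest, while Rps27 had 3-day lowest. Rpl7l1 had 79.7, 68.0, 74.1 and 70.8 CPM, far below its parent Rpl7 at 3082, 3109, 3110.4 and 3037 CPM.

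Cycling cells had a lower ribosomal protein share in every library. Each cell was thinned to 4700 UMIs, and cells were classed by UMIs of cell cycle genes: G2/M-high cells were the top 25% by genes of G2 and mitosis, S-high cells the top 25% of the rest by DNA replication genes, and low-cycling cells the lowest 25% by both. These classes are ranges of a score, and of 7278 cells 119 lay within 1 UMI of the G2/M limit, 504 of the S limit and 536 of the low-cycling limit. Cycle genes were left out of the totals. Low-cycling cells had shares of 41.7%, 42.2%, 41.9% and 43.4% in control, uninduced, 3-day and 6-day. S-high cells had 37.9%, 38.0%, 37.8% and 39.3%, and G2/M-high cells 36.4%, 36.4%, 35.9% and 37.8%. In all 4 libraries the order was low-cycling, S-high, G2/M-high, and the ranges of the low-cycling and S-high classes over libraries did not overlap. The 6-day library was highest within each class.

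The difference between G2/M-high and low-cycling cells was -5.67 ± 0.28 percentage points (SD, n = 4 libraries) and that between S-high and low-cycling cells -4.04 ± 0.12 points, both negative in 4 of 4 libraries. G2/M-high minus S-high cells gave -1.64 ± 0.18 points, negative in 4 of 4. An exact two-sided sign-flip permutation test over the libraries gave p = 0.13 for each of these differences, the smallest it can give, and 0.25 after Benjamini-Hochberg adjustment over 6 contrasts, so the design cannot pass 0.05. Before thinning, the cells had median UMIs of 5912 in low-cycling and 12323 in G2/M-high cells of control, and similar distances in the other libraries, so cycle class and depth move together. Thinning equalises the depth but not the RNA content of the cells.

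**Figure D4:**
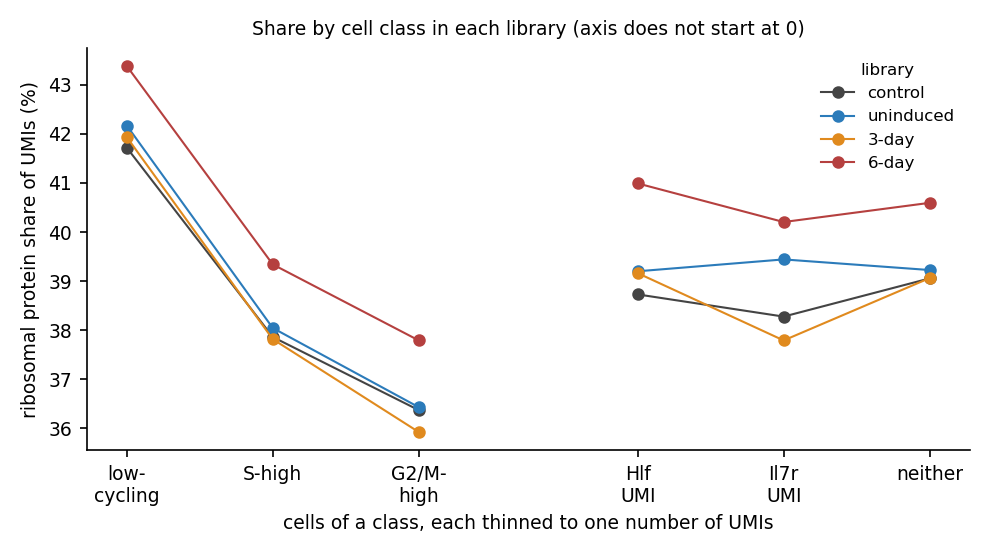
Ribosomal protein share of UMIs, in percent, for classes of cells in each library after thinning each cell to 4700 UMIs. Points are the summed share of 1 class in 1 library and lines join classes of 1 library. The share steps down from low-cycling through S-high to G2/M-high cells in all 4 libraries, while Hlf, Il7r and other cells lie closer together.

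Single members mostly followed the sum. In G2/M-high against low-cycling cells 70 of 80 members were lower in 4 of 4 libraries (background 18.9% of 6779 genes) and 4 were higher (background 36.8%), with a median log2 ratio of -0.21 against 0.10 for all genes. By 1.2-fold or more on average, 21 members were lower (background 13.6%) and none was higher (background 29.2%). In S-high against low-cycling cells 67 were lower in 4 of 4 (background 25%) and 5 higher (background 33.3%), with a median of -0.13 against 0.04. There, 10 members were lower by 1.2-fold (background 19.7%) and 1 was higher (background 28.2%). In G2/M-high against S-high cells 58 members were lower in 4 of 4 (background 22.8%) and 7 higher (background 28.5%), and by 1.2-fold 1 was lower (background 16.4%) and none higher (background 21.9%). That 1 was Rps27l, at -0.38 ± 0.05.

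Rps27 had the lowest G2/M-high to low-cycling ratio, with a log2 ratio of -0.44 ± 0.01 (SD, n = 4). It stood at 5901 CPM in G2/M-high and 7979.9 CPM in low-cycling cells of control, at 5224 and 7115 CPM in uninduced, at 4800.3 and 6595 CPM in 3-day and at 6092 and 8193 CPM in 6-day cells. All 4 libraries gave nearly the same ratio, although the level itself differed between them. Rpl17, a protein at the exit tunnel, followed with -0.41 ± 0.01, then Rps9, which lies at the decoding side of the small subunit, with -0.40 ± 0.02, and Rps14, deleted in the 5q- syndrome, with -0.37 ± 0.03. In S-high cells Rps9 (-0.39 ± 0.01), Rpl32 (-0.37 ± 0.03), Rps27 (-0.36 ± 0.02) and Rpl17 (-0.33 ± 0.02) were the lowest.

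A few members ran the other way. Rps27l had a log2 ratio of 0.50 ± 0.07 in S-high against low-cycling cells, with 734 against 501 CPM in control, 813 against 565 in uninduced, 855 against 651 in 3-day and 822 against 571 in 6-day cells. It was higher in S-high cells of all 4 libraries, whereas its parent Rps27 was lower in all 4. Rps20 had 0.04 ± 0.03 in S-high cells, and Rpl28 had 0.03 ± 0.03 in G2/M-high cells. The paralogues Rpl7l1 (0.22 ± 0.25) and Rpl22l1 (0.08 ± 0.07) were also higher in G2/M-high cells of all 4 libraries, with wide spread between them.

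**Figure D5:**
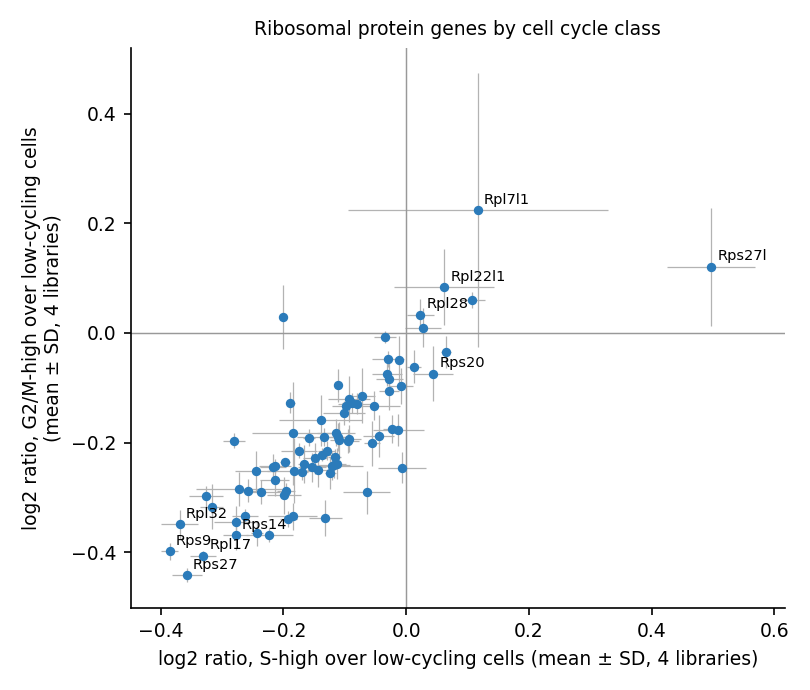
Log2 ratio of each of 80 members in S-high (x axis) and G2/M-high cells (y axis) over low-cycling cells, as mean ± SD over the 4 libraries. Most members lie below 0 on both axes, and Rps27l stands apart at 0.50 on the x axis. The axes share the low-cycling cells.

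Lists of genes that build or use ribosomes differed from the ribosomal proteins in S-high against low-cycling cells, where the members had a median log2 ratio of -0.13. The rRNA processing and ribosome assembly list, with Ncl, Npm1, Fbl and Nop56, had a median log2 ratio of 0.47 in S-high against low-cycling cells, and 34 of 45 genes were higher in 4 of 4 libraries and by 1.2-fold on average, against 28.2% of all genes (19.7% lower). By the same rule 43 of 75 mitochondrial ribosomal protein genes were higher and 2 lower, with a median of 0.32. Translation factors had a median of 0.10, with 12 of 37 higher and 6 lower, near the shares of all genes. In G2/M-high against S-high cells the assembly list was lower again, with a median of -0.42 and 31 of 44 genes lower in 4 of 4 libraries and by 1.2-fold on average (background 16.4%). Members, at -0.07, and the mitochondrial list, at -0.14, also had medians below 0 there, and translation factors had 0.01. In G2/M-high against low-cycling cells the medians were 0.10 for the assembly list, 0.20 for the mitochondrial list and 0.06 for translation factors. All genes had 0.10 and members -0.21 there.

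The same lists were compared between libraries. In 6-day against 3-day cells the assembly list had a median log2 ratio of -0.16 with 9 of 45 genes 1.2-fold lower and 2 higher, the mitochondrial ribosomal list -0.09 with 6 of 76 lower and none higher, and the translation factors -0.05 with 5 of 37 lower and 1 higher. Of all genes 9.38% were lower and 9.58% higher, so the shares of the last 2 lists that were lower lay near the background. Pes1 and Bop1, partners in large subunit assembly, had log2 ratios of -0.43 and -0.46 there, from 48.1 to 35.5 and from 22.2 to 15.8 CPM. In uninduced against control cells the same lists had 3 of 45, 2 of 76 and 1 of 37 genes 1.2-fold lower and none higher, against 10.1% and 2.92% of all genes. Myc, which drives ribosome production, had 132, 98.1, 103 and 109.8 CPM in control, uninduced, 3-day and 6-day cells, so control was highest.

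Cells that carried a transcript of Hlf, a stem cell transcription factor, or of Il7r, the interleukin 7 receptor of lymphoid progenitors, hardly differed in share. After thinning, cells with Hlf but no Il7r numbered 494, 440, 187 and 288, and those with Il7r but no Hlf 186, 138, 66 and 165. Hlf cells had shares of 38.7%, 39.2%, 39.2% and 41.0% in the usual order of libraries, Il7r cells 38.3%, 39.4%, 37.8% and 40.2%, and cells with neither 39.1%, 39.2%, 39.1% and 40.6%. Hlf minus Il7r cells gave 0.59 ± 0.67 points (SD, n = 4), positive in 3 of 4 libraries, with an exact two-sided sign-flip permutation p of 0.25 (0.30 adjusted over 6 contrasts). The difference did not exceed the spread between libraries, and it was -0.73 ± 0.56 points when cells were matched on their UMIs before thinning. Il7r cells had more cycle UMIs, with medians of 44, 36, 49 and 42 against 25.5, 25, 29 and 20.5 in Hlf cells. A UMI can also come from free RNA: among cells of the neutrophil and monocyte list, before thinning, Hlf was seen in 0 of 8, 5 of 28, 2 of 24 and 3 of 31 cells and Il7r in 0, 0, 1 and 5 of them.

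Among single members 29 were higher in Hlf than in Il7r cells in 4 of 4 libraries (background 13.8% of 6671 genes) and 10 were lower (background 13.2%), with a median log2 ratio of 0.02 against 0.01 for all genes. Rps27l was the only member that was also past 1.2-fold on average (background 8.72% lower and 10.1% higher), with -0.34 ± 0.11: 522 CPM in Hlf against 670.3 CPM in Il7r cells of control, 568 against 800.2 in uninduced, 683 against 803 in 3-day and 599 against 727 in 6-day. It was thus lower in Hlf cells everywhere. Rpl28 (-0.11 ± 0.02) and Rpl7a (-0.09 ± 0.04) were lower by less. Against cells with neither transcript, 15 members were higher (background 14.8%) and 19 lower (background 10.7%) in Hlf cells of all libraries, and 4 higher (background 12.4%) and 22 lower (background 10.6%) in Il7r cells. None of these passed 1.2-fold (backgrounds 6.34% and 2.66% for Hlf, 7.01% and 6.54% for Il7r, higher and lower). Compared with Il7r cells, Rpl38 (0.16 ± 0.06), Rps14 (0.12 ± 0.03), Rpl17 (0.12 ± 0.03) and Rpl36 (0.10 ± 0.04) were the highest in Hlf cells. Il7r cells had more cycle UMIs than Hlf cells, as given above. These member ratios were not computed in low-cycling cells alone, so the part of the cell cycle in them was not tested.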

How the data were processed

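UMI counts per gene and barcode were deposited by the authors for 4 10x libraries, 1 per group. The authors also deposited log2 expression tables, which were used here only for their lists of cells. Seurat and the mm10 build are named per the submitters' processing notes, while the aligner and the 3′ or 5′ chemistry are not given in the sources used here. How many mice stand behind each library is also unstated. With 1 library per group no test was made between groups. Doublets were not called.

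Counts were summed over each library's cells and divided by total UMIs (CPM). Ratios are log2 of (CPM + 1), over genes that reached 10 CPM in at least 1 of the libraries compared. Levels have exact Poisson, ratios conditional exact and shares Clopper-Pearson intervals, at 95%. Cells were thinned to 4700 UMIs for classes, leaving out 351 control, 676 uninduced, 204 3-day and 374 6-day cells; the summed share was then 38.9%, 39.2%, 39.0% and 40.6%. Class differences were tested over the 4 libraries by exact sign-flip permutation. Shared ends are the percent of 31-base words in a gene's last 500 transcript bases that occur in another gene. TMM factors (edgeR 4.0.16) and DESeq2 1.42.0 size factors served as other scalings, run in R 4.3.3. Other steps used Python 3.11.15 with numpy 2.4.6, scipy 1.17.1, pandas 2.3.3 and matplotlib 3.10.9. The scripts were tested on simulated data.

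Genes named are the 8 of largest spread, the 3 highest and 3 lowest in control, the stalk genes, Rpsa, Rpl5, Rpl11, paralogues with parents, and the 4 highest and 4 lowest of each class contrast among those of 1 sign in all libraries. From each further ribosome list up to 2 genes each way could be named. Some genes that meet this rule are not reported here. Rps19, Rps21, Rps6 and the copies lie outside it and were added after their values were seen. Members and lists were chosen with earlier results of these data known.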

Additional observations from a re-analysis of the deposited data

Results flagged for a closer look

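The differences in ribosomal protein share between Hlf, Il7r and other cells took opposite signs in different libraries, and whether the libraries differ was not tested. Hlf minus Il7r cells gave 0.452, -0.242, 1.37 and 0.787 points in control, uninduced, 3-day and 6-day. Hlf cells minus cells with neither gave -0.326, -0.0256, 0.101 and 0.396 points in the same order. Il7r cells minus cells with neither gave -0.778, 0.217, -1.27 and -0.391 points. The 3-day values rest on the fewest Il7r cells, 66.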

How the results depend on the processing

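No paired analysis was possible because there was a single library for every group. In control, uninduced, 3-day and 6-day order, the summed share was 38.9%, 39.3%, 39.1% and 40.5% as a mean over cells, 38.4%, 39.1%, 38.7% and 40.3% without cells of other types, 39.4%, 39.9%, 39.6% and 41.2% with mitochondrially encoded genes out of the total, and 40.04%, 40.4%, 39.999% and 41.7% with copies and ribosomal genes outside the rule added. The 6-day library was highest in each. Medians of members over control became 0.11 (TMM) and 0.12 (DESeq2) for uninduced, 0.13 and 0.14 for 3-day, and 0.16 and 0.17 for 6-day, the last 0.11 when scaled by genes that are not members. Against uninduced, 6-day became 0.0506 by non-member genes, 0.0384 by TMM and 0.0395 by DESeq2, and 3-day, at -0.00265 by total UMIs, became 0.014 by DESeq2. The 6-day to 3-day median became 0.0502 by non-member genes. These scalings moved the median of all genes by up to 0.10, so the size of small differences in the family depends on them. Of the members' medians only that of 3-day against uninduced changed sign. By DESeq2 the median of all genes over control became 0.008 for uninduced, 0.017 for 3-day and -0.005 for 6-day, so its direction also depended on the scaling. Leaving out members with mostly shared ends left 2 past 1.2-fold in uninduced against control, 2 in 6-day against uninduced and 4 in 6-day against 3-day, of 39. With no filter on low values 1 member passed in 3-day against uninduced, and with DESeq2 1 in 6-day against control. Under scalings added after seeing the data, control and 6-day were above in 10 members by TMM (19.2% of all genes) and 9 by DESeq2 (17.9%), and the opposite order held in 2 by non-member genes (13.0%).

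Cycle differences kept their sign in all alternatives run, and leaving out 1 library gave -5.78 to -5.56 points for G2/M-high minus low-cycling cells. That difference was -7.49 when matched on UMIs before thinning and -7.07 with classes of 10% in place of 25%. It was -5.64 with all UMIs and -5.33 without other cell types. G2/M-high minus S-high became -1.14 without other cell types and -1.74 when matched. S-high minus low-cycling became -5.71 with classes of 10% and -4.08 when matched. Hlf minus Il7r became -0.32 in low-cycling cells alone and -0.73 with cells matched on UMIs. Hlf minus neither became -0.0294 at 2 or more UMIs, -0.47 in low-cycling cells, -0.25 without other cell types and -0.34 when matched, and ranged from -0.0834 (without 6-day) to 0.16 on leaving out 1 library. Il7r minus neither became 0.17 when matched. The causes were not tested. All 32 values recomputed for single members stayed on the same side of 1, and 10 moved past their counting interval. With 1 library per group, depth narrows the counting error only.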
